A study of Rattus norvegicus with 23 samples.

Results

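Lung RNA of 8 rats that had breathed a low concentration of eucalyptus wood smoke was compared with lung RNA of 7 rats that had breathed filtered air, over all genes measured. These are 15 of the 22 libraries in the series, and their groups were taken from the treatment given for each rat. Of the 19249 genes in the table, 14391 had a mean value of at least 10 over the 15 libraries and were tested. The other 7 libraries came from rats given a high smoke concentration and enter only where a level is set beside that of low smoke.

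Both groups were whole-body exposures of male rats on a firefighter's shift pattern, with 4 exposure days in week 1, 3 days of rest and 3 exposure days in week 2. The target carbon monoxide concentration was 10 ppm at the low dose and 20 ppm at the high dose, and the air rats received filtered air. Strain, age and the time from the last exposure to tissue collection are not given in the sources used here. A frozen lung piece of about 35 mg per rat was used, so each library is 1 animal and holds every cell type of that piece. In such bulk samples, fewer cells of a type and less RNA per cell cannot be told apart.

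Wood smoke carries fine particles, carbon monoxide, aldehydes and polycyclic aromatic hydrocarbons. The hydrocarbons bind the aryl hydrocarbon receptor (AHR), which then pairs with ARNT and switches on detoxifying enzymes, Cyp1a1 first among them. Reactive aldehydes and oxidants release the transcription factor NRF2 from its inhibitor, and NRF2 raises genes of glutathione synthesis and quinone reduction. Alveolar macrophages and epithelium can also answer inhaled particles with cytokines that draw in neutrophils, and interferons act on most lung cells to induce antiviral genes.

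Depth was 8484131 to 11640645 read equivalents in the air libraries and 9384813 to 10773295 in the low smoke libraries. The difference of the means was 428260 and did not pass the test (exact two-sided permutation test over 6435 splits, p = 0.3554). Surfactant protein genes marked the tissue as lung: Sftpc values ran from 53126 to 106859 over the 15 libraries, and those of the endothelial gene Cdh5 from 5869 to 11067. On the second principal component of the 15 libraries (13.8% of the variance), air replicate 3 scored 44.6 and all others -21.8 to 9. On the first (14%), air replicate 5 scored 25.5 and the other air libraries -21.3 to 3.2, while low smoke libraries ran from -14.6 to 21.1. Where leaving out either of these air libraries moved a printed value by over 1.5 times or turned its sign, the value without it is given beside it or with the processing alternatives.

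No gene passed the test in low smoke against air. With limma on log2(value + 1), 0 of 14391 genes (0%) had an adjusted p below 0.05, and the smallest adjusted p was 0.130. Without adjustment, 1089 genes (7.57%) had a p below 0.05, of which 619 (4.3%) were higher and 470 (3.27%) lower in low smoke. An exact rank-sum test per gene also gave 0 genes after adjustment, and 900 before it. Differences were above 0 for 50.9% of the genes and below 0 for 49.1%, with a median of 0.0027 on the log2 scale.

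The sizes of these differences were small for most genes. The median absolute difference was 0.089 on the log2 scale, beside a median standard error of 0.112. The 95% confidence interval reached a median of 0.23 to either side of the estimate, a 1.18-fold change. For 11925 genes (82.9%) the whole interval lay within a 1.5-fold change in either direction, and for 13890 (96.5%) within a 2-fold change. Only 44 genes had an estimate beyond 2-fold, 24 higher and 20 lower, and none of these passed the test. The air rats varied more than the low smoke rats: the median SD over genes was 0.232 in air and 0.191 in low smoke on the log2 scale, and the SD was larger in air for 66.4% of the genes. Without air replicate 3 that share was 58.8%.

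**Figure D1:**
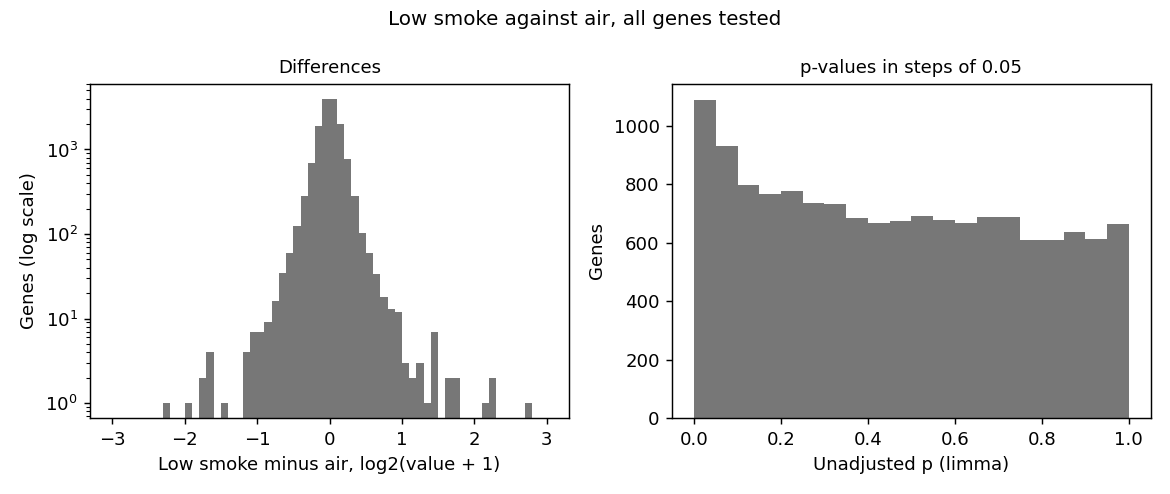
Left, the number of genes (log scale) by their difference in mean log2(value + 1), low smoke minus air, for all 14391 genes tested; right, the number of genes by unadjusted limma p in steps of 0.05. Most differences lie close to 0, and the first step on the right holds 1089 genes, none with an adjusted p below 0.05.

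The sequences below are examples from the interferon response and the immediate early genes, 2 of the gene lists described below in which most members were lower in low smoke. They are the 250 bases before the RefSeq gene start, in build GRCr8, printed 5′ to 3′ on the gene's own strand with the motif match in capitals. Irf7, the transcription factor that amplifies interferon production (chr1:205800024-205800273, minus strand), and Isg20, an antiviral exonuclease (chr1:142239809-142240058, plus strand), each hold 1 match to the interferon-stimulated response element. Dusp1, a phosphatase that switches off MAP kinases (chr10:17184603-17184852, plus strand), holds 1 match to the cyclic AMP response element.
Irf7: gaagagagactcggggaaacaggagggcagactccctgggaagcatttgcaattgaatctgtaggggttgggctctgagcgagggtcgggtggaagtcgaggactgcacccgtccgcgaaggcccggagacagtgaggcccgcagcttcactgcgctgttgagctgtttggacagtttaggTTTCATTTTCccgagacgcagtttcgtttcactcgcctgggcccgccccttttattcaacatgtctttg
Isg20: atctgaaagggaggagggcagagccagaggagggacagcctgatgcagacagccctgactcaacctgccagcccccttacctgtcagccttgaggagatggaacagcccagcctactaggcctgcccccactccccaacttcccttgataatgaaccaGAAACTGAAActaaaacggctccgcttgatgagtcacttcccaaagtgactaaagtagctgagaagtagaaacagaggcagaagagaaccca
Dusp1: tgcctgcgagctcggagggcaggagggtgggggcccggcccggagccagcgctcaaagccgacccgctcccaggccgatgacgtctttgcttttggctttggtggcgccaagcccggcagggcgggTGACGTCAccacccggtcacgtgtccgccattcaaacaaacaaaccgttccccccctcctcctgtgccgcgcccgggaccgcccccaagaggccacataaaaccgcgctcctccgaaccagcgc

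The interferon motif was searched as GAAA, any 2 bases and GAAA, on both strands of RefSeq promoters that run from 250 bases before to 50 after the gene start. It was present in 3.92% of 33469 promoters and in 20 of the 35 interferon list members with a promoter entry (57.1%), among them Irf7, Isg20 and Rsad2. The cyclic AMP motif TGACGTCA was present in 1.83% of all promoters and in 5 of 26 immediate early members (19.2%), which were Jund, Ier2, Btg2, Dusp1 and Maff. The core of the AHR-binding element, GCGTG, was present in 29.7% of all promoters and in 6 of the 7 AHR list members with an entry. None of these 3 motifs contains another. A match describes letters in these windows and is not a measured binding site.

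The gene with the smallest p among the well-measured, named genes was Aplnr, the receptor on endothelial cells for the peptide hormone apelin. It lies on chromosome 3 at 72540538 to 72544183 (rn6, as in the deposited table). Aplnr stood at 6381 (lowest), 6802 (median) and 7473 (highest) in air, and at 7938, 8285 and 10084 in low smoke. All 8 low smoke libraries lay above all 7 air libraries. The difference was 0.33 ± 0.06 (log2, SE), a 1.25-fold higher level, with a limma adjusted p of 0.130. High smoke libraries ran from 6607 to 10600 and their difference from low smoke was 0.02 ± 0.08 (limma adjusted p = 0.906).

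Groups that did not overlap were few: 2 genes (0.0139%) had all low smoke values above all air values, and 4 (0.0278%) had them all below, 6 in all (0.0417%). Beside Aplnr, the higher one was the processed pseudogene AABR07033045.1, named after its values were seen, at 4.90 to 20.0 in air and 22.9 to 59.0 in low smoke. The 4 lower ones were Araf, Gga3, Tmem87b and Magee1. Araf, a RAF kinase of the growth factor pathway, ran from 347 to 416 in air and from 295 to 342 in low smoke (difference -0.24, adjusted p = 0.357 with limma). Gga3, an adaptor for clathrin vesicles at the Golgi, ran from 457 to 540 in air and from 390 to 434 in low smoke (difference -0.22, adjusted p = 0.361 with limma). Tmem87b, a Golgi membrane protein, ran from 1417 to 1600 in air and from 1258 to 1357 in low smoke (difference -0.18, adjusted p = 0.386 with limma). Magee1, of the MAGE family, ran from 58.3 to 77.4 in air and from 39.9 to 56.9 in low smoke (difference -0.40, adjusted p = 0.413 with limma). None of the 5 protein-coding genes had an estimate beyond 1.5-fold, and none passed the test.

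Of the 12 named genes with the smallest p, 11 were higher in low smoke and 1 was lower. Borcs7, a subunit of the complex that positions lysosomes, stood at 457, 492 and 603 in air (lowest, median, highest) and at 586, 683 and 751 in low smoke. Of the low smoke values, 5 lay above the highest air value, and the difference was 0.38 ± 0.07 (log2, SE, limma adjusted p = 0.181). Fam171a1, a membrane protein, stood at 865, 941 and 1148 in air and at 1134, 1252 and 1582 in low smoke, a difference of 0.40 ± 0.08 (limma adjusted p = 0.181). Here 7 of 8 low smoke libraries exceeded every air library. Lpcat3, which places polyunsaturated fatty acids into membrane phospholipids, stood at 781, 880 and 1061 in air and at 947, 1178 and 1369 in low smoke, a difference of 0.36 ± 0.08. Pdia5, a disulfide isomerase of the endoplasmic reticulum, stood at 209, 273 and 295 in air and at 294, 333 and 412 in low smoke, a difference of 0.39 ± 0.09. The limma adjusted p was 0.304 for Lpcat3 and 0.320 for Pdia5.

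Rbmx2, an RNA-binding protein of the spliceosome, stood at 220, 244 and 413 in air and at 315, 412 and 501 in low smoke (difference 0.60 ± 0.13, limma adjusted p = 0.276). The highest air value was that of air replicate 5, and leaving it out must enlarge the difference. Without that library the difference was 0.71 (limma adjusted p = 0.0240), and this pass is no added support. Pak2, a kinase that acts on the cytoskeleton, stood at 108, 191 and 252 in air and at 236, 292 and 365 in low smoke. Its lowest air value was that of air replicate 3, and the difference was 0.65 ± 0.14 with that library and 0.52 without it (limma adjusted p = 0.279 with it). Rcbtb2 (0.38 ± 0.09), Nme4, a mitochondrial nucleoside diphosphate kinase (0.33 ± 0.08), and Ccno, the cyclin O that multiciliated cells need to make centrioles (0.72 ± 0.17), each had a limma adjusted p of 0.320. Ccno stood at 70.3 to 144 in air and 138 to 254 in low smoke, with 6 of 8 low smoke libraries above the air range. Dnajc12, a co-chaperone of the aromatic amino acid hydroxylases, was the lower one: it stood at 94.0, 143 and 189 in air and at 47.7, 78.0 and 122 in low smoke (difference -0.84 ± 0.19, limma adjusted p = 0.320).

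**Figure D2:**
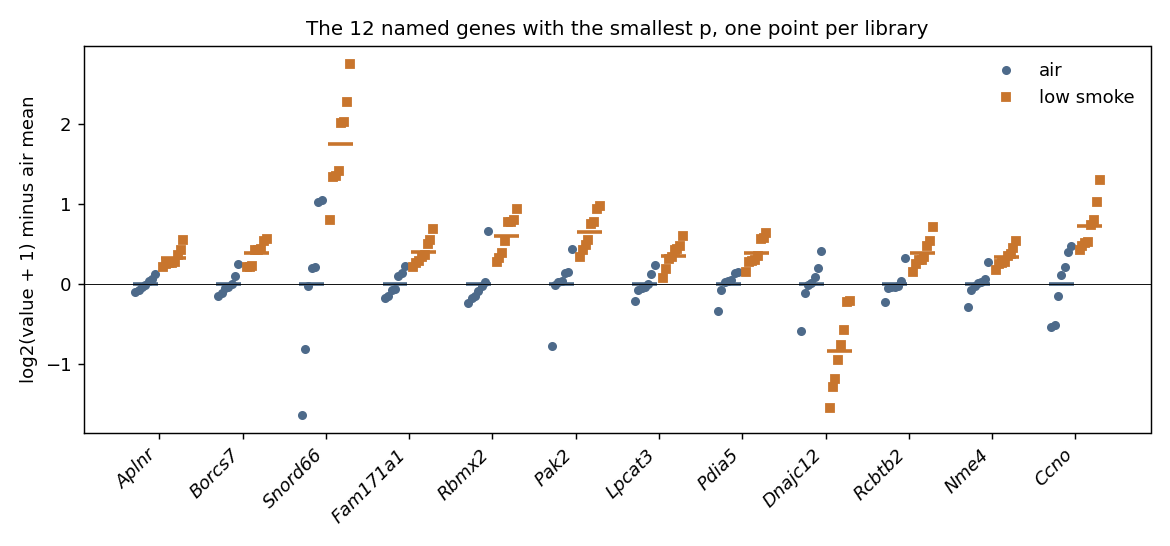
Log2(value + 1) minus the air mean for the 12 named genes with the smallest p, one point per library (circles, 7 air; squares, 8 low smoke), with the group means as bars. The groups are fully apart for Aplnr alone; single air libraries of Rbmx2 and Pak2 stand away from their group.

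Genes without an approved name were looked at after their values were seen. LOC108348050, on chromosome 11 at 15081774 to 15089851 (rn6), stood at 0.0345, 4.81 and 20.2 in air and at 12.6, 31.8 and 60.1 in low smoke (difference 2.75 ± 0.47, limma adjusted p = 0.130). The lowest air value is less than 1 read, the highest was air replicate 3, and 7 of 8 low smoke libraries lay above it. Without air replicate 3 the gene passed the test (3.10, limma adjusted p = 0.00834). In high smoke the same gene ran from 0.0481 to 70.1. LOC108348065 (0.83 ± 0.15) and the long noncoding RNA AABR07035955.1 (0.91 ± 0.17) were higher with a limma adjusted p of 0.130 each, and LOC100911730 (-0.88 ± 0.18) was lower with one of 0.227. LOC108348065 passed without air replicate 6 (limma adjusted p = 0.0327), and LOC100911730 without air replicate 5 (limma adjusted p = 0.0240). In both cases the library left out held the air value nearest to low smoke. Loci of this kind may be copies that share reads, and how such reads were counted is not given in the sources used here.

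Small nucleolar RNAs (snoRNAs), which guide chemical modification of ribosomal RNA and are mostly cut out of the introns of host genes, stood higher in low smoke. Only 22 of the 74 listed by family name reached the level filter. Of these, 21 were higher and 1 was lower (SNORA63, -0.03). In all, 14 were higher at an unadjusted p below 0.05 (all genes, 4.3%) and 0 passed the test. Their median difference was 0.74, beside 0.0027 for all genes. Over every gene that the table types as snoRNA, 36 of 233 were tested, 33 of them were higher, and the median was 0.61.

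Snord66, on chromosome 11, stood at 189, 678 and 1228 in air and at 1033, 1987 and 4016 in low smoke. In 7 of 8 low smoke libraries it lay above the highest air library, and the difference was 1.75 ± 0.35 (limma adjusted p = 0.181). SNORD82 stood at 164, 679 and 1293 in air and at 929, 1465 and 2920 in low smoke (difference 1.46 ± 0.34, limma adjusted p = 0.330). SNORD18 stood at 333, 1070 and 1912 in air and at 1354, 1905 and 3892 in low smoke (difference 1.18 ± 0.30, limma adjusted p = 0.386). Its entry, on chromosome 8 at 69123323 to 69125414 (rn6), is longer than those of Snord66, SNORD82 and Snord92. Snord92 stood at 3.24, 11.1 and 24.7 in air and at 13.8, 25.0 and 76.0 in low smoke (difference 1.40 ± 0.38, limma adjusted p = 0.413). For each of these 4, all low smoke libraries exceeded the air median, and air values spread widely.

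The mean of the 22 snoRNAs in each library, set to 0 at the air mean, ran from -1.26 to 1.00 in air and from 0.18 to 1.32 in low smoke, so 6 of 8 low smoke libraries were inside the air range. The 2 lowest air libraries were replicates 3 and 1, at -1.26 and -0.77. Without air replicate 3 the median difference of the list was 0.52 and the difference of Snord66 was 1.47. The host genes were not followed as a set. The host list held 1 gene, Snhg11 (-0.06 ± 0.13, limma adjusted p = 0.946, and -0.11 without air replicate 3). The hosts of the snoRNAs named here were not compared with them. Proteins of snoRNA particles and the nucleolus were lower in 12 of 20 with a median of -0.05, which was -0.014 without air replicate 3 and -0.024 without air replicate 5. Among them Nop56, a core protein of these particles, differed by -0.30, or -0.21 without air replicate 3, and Npm1, nucleophosmin, by -0.12, or -0.076 without it. Because most snoRNAs lie within an intron of their host, their reads and those of unspliced host RNA cannot be told apart in these counts.

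The genes that combustion products are best known to induce did not pass the test. Cyp1a1 stood at 1.05, 7.56 and 20.6 in air and at 1.91, 20.6 and 68.7 in low smoke. In all, 5 low smoke libraries lay above the highest air library, and the difference of 1.46 ± 0.63 had a 95% interval of 0.15 to 2.78 (limma adjusted p = 0.612). The air mean of Cyp1a1, 9.27, lay under the level filter of 10. It was tested only through its low smoke mean of 28.6. At values this low the log2(value + 1) scale understates folds. High smoke libraries had a median of 11.9, and high smoke minus low smoke was -0.72 (limma adjusted p = 0.482). Ahrr, the AHR repressor, stayed under the level filter, with medians of 4.94 in air and 4.62 in low smoke.

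Among the other AHR targets, Cyp1b1 and Tiparp had intervals that included 0 and lay within a 1.5-fold change. Cyp1b1, a sister enzyme, differed by -0.12 (95% interval -0.30 to 0.07), and Tiparp, which dampens AHR signalling, by -0.13 (-0.30 to 0.05). Ahr itself stood at 2794 to 5565 in air and 3885 to 6387 in low smoke (0.27 ± 0.14, limma adjusted p = 0.681). Of the 9 AHR list genes tested, 4 were higher and 5 lower, with a median of -0.11 that was -0.021 without air replicate 3. The lowest of them was Aldh3a1, an aldehyde dehydrogenase, at -0.45 (limma adjusted p = 0.767), with medians of 11.5 in air and 8.88 in low smoke.

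NRF2 targets were divided in direction: 12 of 25 were higher and 13 lower, with a median of -0.003, and without air replicate 3 there were 16 higher and 9 lower (median 0.030). The median was -0.032 without air replicate 5. Nqo1, the quinone reductase, stood at 192, 226 and 298 in air and at 200, 229 and 324 in low smoke (0.06, 95% interval -0.18 to 0.30, and 0.12 without air replicate 3). Gclc and Gclm, the 2 subunits of the rate-limiting enzyme of glutathione synthesis, differed by -0.12 (-0.26 to 0.02) and 0.02 (-0.18 to 0.22). Txnrd1, thioredoxin reductase, differed by 0.02 (-0.18 to 0.22). For Nqo1, Gclc, Gclm and Txnrd1 the intervals lay within a 1.5-fold change. Hmox1, which breaks down heme, stood at 164, 247 and 1395 in air and at 144, 281 and 364 in low smoke. The high value was air replicate 3 alone; with it the difference was -0.31, and without it 0.04. Me1, malic enzyme, was lower (-0.24 ± 0.09, limma adjusted p = 0.551), and Fth1, ferritin heavy chain, was higher (0.38 ± 0.15, limma adjusted p = 0.605).

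Antioxidant genes were higher in 12 of 19 with a median of 0.016 (-0.019 with every library scaled to the same total, 0.046 without air replicate 3). At an unadjusted p below 0.05, Gpx4, Cat and Sod1 (0.31) were higher (all genes, 4.3%). Prdx3 and Txn1 (-0.23 each) were lower at that p (all genes, 3.27%). Gpx4, which repairs lipid peroxides in membranes, stood at 395, 469 and 640 in air and at 522, 652 and 907 in low smoke (0.41 ± 0.12, limma adjusted p = 0.439). Cat, catalase, stood at 1462, 1617 and 2079 in air and at 1736, 1896 and 2383 in low smoke (0.25 ± 0.08, limma adjusted p = 0.517). All 8 low smoke libraries exceeded the air median for both genes. Xenobiotic enzymes were split 8 and 8, or 9 higher and 7 lower without air replicate 3, with Cyp2e1 at 0.46 ± 0.23 and Fmo1 at 0.14 ± 0.08.

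**Figure D3:**
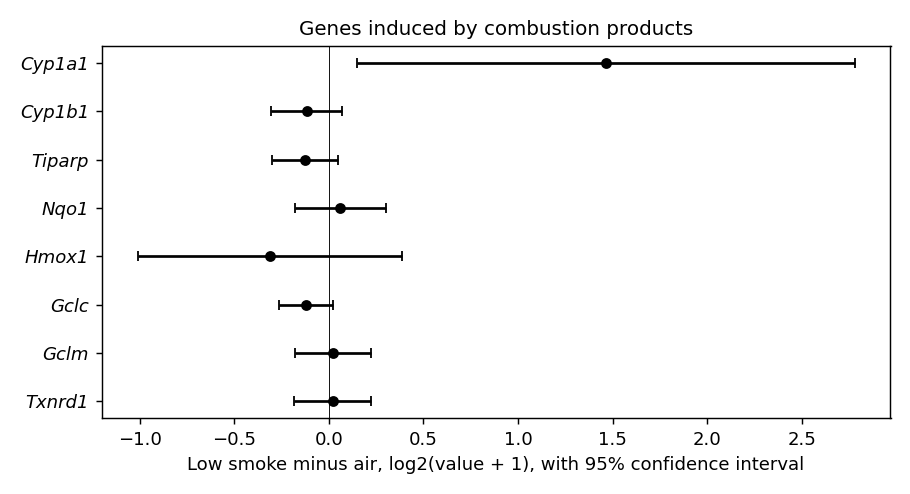
Differences in mean log2(value + 1), low smoke minus air (points), with 95% confidence intervals (bars), for 8 genes induced by combustion products. The interval of Cyp1a1 spans 0.15 to 2.78 and those of the other 7 include 0.

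Genes of the interferon response stood lower in most low smoke lungs. Of 43 tested, 38 were lower, against 49.1% of all genes. The 5 higher were the receptor chains Ifnar1 and Ifnar2 (0.10 and 0.12) and Eif2ak2, Irf1 and Bst2 (0.01 to 0.06). At an unadjusted p below 0.05 there were 5 lower (all genes, 3.27%), Rsad2 (-0.42) and the 4 described next, and 0 passed the test. The median difference was -0.21, or -0.18 without air replicate 3 and -0.27 without air replicate 5. Irf7, whose promoter is printed above, stood at 105, 167 and 393 in air and at 54.4, 97.9 and 213 in low smoke (-0.72 ± 0.27, limma adjusted p = 0.582). Of its low smoke values, 5 lay below the lowest air value.

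Usp18, which removes ISG15 from proteins and restrains the interferon receptor, stood at 160, 295 and 492 in air and at 107, 161 and 359 in low smoke (-0.58 ± 0.25, limma adjusted p = 0.612). Isg15, the ubiquitin-like modifier, stood at 40.9, 68.1 and 103 in air and at 29.8, 45.3 and 79.4 in low smoke (-0.50 ± 0.21, limma adjusted p = 0.605). Isg20 differed by -0.32 ± 0.15 (limma adjusted p = 0.632). The groups overlapped for all 4 genes. As a list mean per library, 5 of 8 low smoke libraries lay below the lowest air library (-0.34), while low smoke replicates 4 and 7 were at 0.17 and 0.23, above the air mean. Air replicate 1 was the highest of all at 0.48.

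Antigen presentation genes, many of which interferon also induces, were lower in 10 of 19 with a median of -0.01, or -0.0061 without air replicate 3 and -0.05 without air replicate 5. Ciita, the master regulator of class II genes, differed by -0.15, and Psmb9, a subunit of the immunoproteasome, by -0.26, with neither past the test.

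Immediate early genes, which switch on within minutes of a stimulus, were lower in 27 of 34 and higher in 7, with a median of -0.19. Of these, 10 were lower at an unadjusted p below 0.05 (all genes, 3.27%), and 0 passed the test. Egr1, a zinc finger transcription factor, stood at 462, 725 and 1599 in air and at 285, 524 and 655 in low smoke (-0.70 ± 0.24, limma adjusted p = 0.531). Nr4a1, an orphan nuclear receptor, stood at 304, 424 and 700 in air and at 209, 310 and 398 in low smoke (-0.53 ± 0.17, limma adjusted p = 0.515). Junb, a subunit of AP-1, differed by -0.51 ± 0.17 and Zfp36, which speeds the decay of cytokine mRNA, by -0.41 ± 0.16.

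The air group was divided for these genes. The list mean was 0.30, 0.44 and 0.26 in air replicates 3, 4 and 5 and between -0.36 and -0.19 in the other 4, and all 8 low smoke libraries (-0.36 to -0.10) lay inside the air range. Without air replicate 3 the list median was -0.11, with 23 lower and 11 higher, Egr1 was at -0.53 and Junb at -0.39.

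Glucocorticoid-induced genes were lower in 18 of 22 with a median of -0.16, which was -0.06 without air replicate 5. Dusp1 belongs to this list and to the immediate early list, and stood at 1202, 2041 and 4132 in air and at 1154, 1569 and 1838 in low smoke (-0.57 ± 0.22, limma adjusted p = 0.605). No low smoke library exceeded the air median of Dusp1, but 7 of 8 lay inside its air range. Its air values were 3497, 4132 and 3332 in replicates 3, 4 and 5 and 1202 to 2041 in the other air libraries. The list mean was 0.25 and 0.36 in air replicates 4 and 5 and -0.32 to -0.0055 in the other air libraries. For the list mean, 6 of 8 low smoke libraries lay inside the air range. Klf9, a transcription factor that the glucocorticoid receptor binds and induces, differed by -0.19 ± 0.08, Bcl6, a transcriptional repressor, by -0.25 ± 0.11, and Ddit4, an inhibitor of mTOR signalling, by -0.35 ± 0.19.

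Acute inflammation genes stood lower in 16 of 20 and higher in 4 (Il1a, Vcam1, Nfkbiz and Socs3, by 0.04 to 0.10), with a median of -0.24, or -0.14 without air replicate 3. Cxcl2, a chemokine that draws neutrophils, stood at 14.6, 24.2 and 70.2 in air and at 5.63, 12.6 and 37.1 in low smoke (-0.83 ± 0.39, limma adjusted p = 0.648). Ptgs2, the inducible cyclooxygenase, stood at 57.8, 84.3 and 111 in air and at 39.2, 55.8 and 88.4 in low smoke (-0.47 ± 0.17, limma adjusted p = 0.558). Selp, P-selectin, differed by -0.51 ± 0.24, and Il1rn, the antagonist of the interleukin-1 receptor, by -0.25 ± 0.15. The list mean per library was highest in air replicate 3 at 0.66.

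Markers of alveolar type 1 cells, the flat cells through which gas is exchanged, were higher in 14 of 15, with a median of 0.20, or 0.11 without air replicate 3. There were 5 higher at an unadjusted p below 0.05 (all genes, 4.3%), and 0 passed the test. Scnn1g, a subunit of the epithelial sodium channel, stood at 831, 987 and 1228 in air and at 1077, 1208 and 1337 in low smoke (0.28 ± 0.07, limma adjusted p = 0.386). Krt7, a keratin of simple epithelia, stood at 677, 841 and 1039 in air and at 955, 1040 and 1215 in low smoke (0.32 ± 0.09, limma adjusted p = 0.404). Ager, the receptor for advanced glycation end products, stood at 7763 to 14252 in air and 9530 to 20297 in low smoke (0.43 ± 0.16), and Igfbp2 differed by 0.43 ± 0.16. The fifth at an unadjusted p below 0.05 was Sema3e (0.25), and the 1 lower marker was Cav1 (-0.03).

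Type 2 cells, which make surfactant, showed no common direction: 5 of 12 markers were higher and 7 lower, with a median of -0.023 (-0.0034 without air replicate 3, 0.012 without air replicate 5). Napsa, the aspartic protease that processes surfactant protein B, differed by 0.19 ± 0.09, and Lpcat1, which makes the main surfactant lipid, by -0.15 ± 0.06 (limma adjusted p = 0.661 and 0.605). Club cell genes were lower in 4 of 7, and in 3 of 7 without air replicate 3. Scgb1a1, the club cell secretory protein, stood at 4902 to 8748 in air and 4359 to 6568 in low smoke (-0.26 ± 0.12, limma adjusted p = 0.620), with no low smoke library above the air median; Scgb3a1 differed by -0.43 ± 0.64, or -0.81 without air replicate 5. Ciliated cell markers were split 6 and 6, with Tppp3 at 0.12 and Dnah11, an axonemal dynein, at -0.19.

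Endothelial markers were higher in 19 of 24 with a median of 0.10 and 4 at an unadjusted p below 0.05 (all genes higher, 4.3%). After Aplnr, the smallest p were those of Sox18, a transcription factor of vessel formation (0.29 ± 0.09, limma adjusted p = 0.517), Gpihbp1, which anchors lipoprotein lipase on capillaries (0.65 ± 0.25), and Plvap, the diaphragm protein of fenestrae (0.30 ± 0.14). Genes of vessel tone were higher in 10 of 15 with a median of 0.05, or 0.09 without air replicate 5. Smooth muscle and pericyte markers were higher in 13 of 15, but by a median of 0.047, or 0.075 without air replicate 5. Tagln differed by 0.14 and Mylk, myosin light chain kinase, by 0.15.

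Extracellular matrix genes were higher in 26 of 37 with a median of 0.08, and 5 were higher at an unadjusted p below 0.05 (all genes, 4.3%). Fbn1, fibrillin-1 of elastic fibres, stood at 1547, 2394 and 2829 in air and at 2520, 2712 and 3732 in low smoke. Its lowest air value was air replicate 3, and the difference was 0.35 ± 0.11 with that library and 0.25 without it. Col4a1 (0.15 ± 0.07) and Col4a2 (0.22 ± 0.09), the chains of basement membrane collagen, and Sparc, a matrix protein that binds collagen (0.19 ± 0.08), had limma adjusted p of 0.605 to 0.640. The fifth at an unadjusted p below 0.05 was Mfap5 (0.21). Fibroblast markers were higher in 7 of 10 with a median of 0.096, or 0.033 without air replicate 3. Dpt and Meox2 stood at 0.19 each, and at 0.12 and 0.09 without air replicate 5. TGF-beta pathway genes were higher in 16 of 22 by a median of 0.03 (-0.0094 with every library at the same total, 0.053 without air replicate 5), with Tgfb1 at 0.17 and the endothelial receptor Acvrl1 at 0.13. Proteases were lower in 11 of 17, with Ctsk, cathepsin K, at -0.38 and Ctsl, cathepsin L, at 0.24, and without air replicate 3 they were lower in 5 of 17, the median moving from -0.06 to 0.09.

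**Figure D4:**
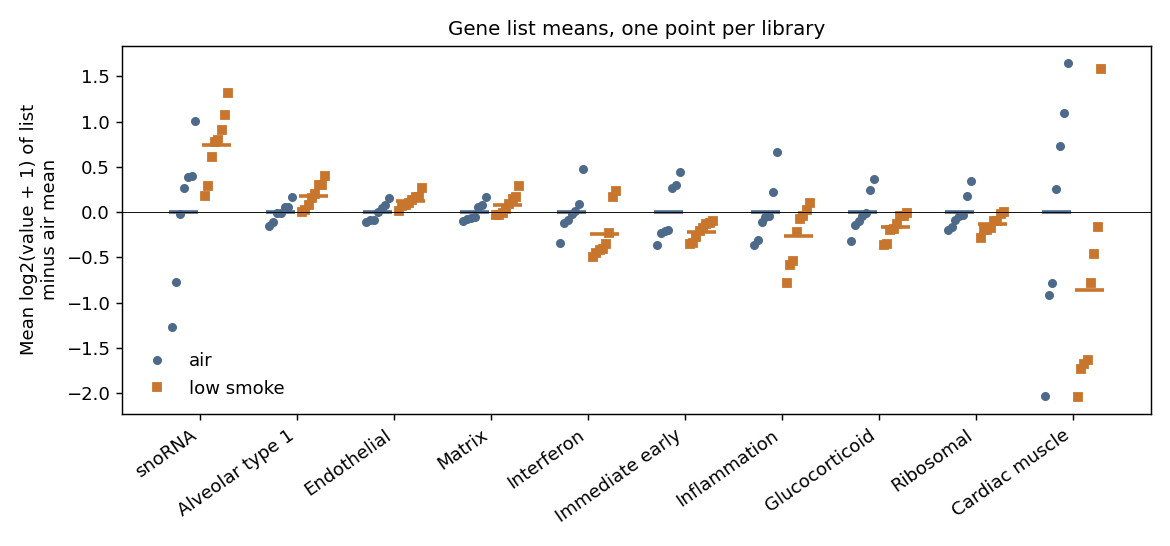
Mean log2(value + 1) of the tested members of 10 gene lists in each library, minus the air mean (circles, 7 air; squares, 8 low smoke; bars, group means). The groups overlap in all 10 lists. For interferon genes, 5 of 8 low smoke libraries lie below every air library. Cardiac muscle genes spread over about the same range in both groups, but in low smoke only replicate 2 lies above the air mean.

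Immune cell markers gave no difference past the test. Macrophage markers were lower in 10 of 13 with a median of -0.054, or -0.125 without air replicate 3 and -0.106 without air replicate 5, among them Adgre1, the F4/80 antigen (-0.36 ± 0.19), and Gpnmb (-0.25 ± 0.15). Neutrophil markers were lower in 6 of 9, with Cxcr2 at -0.40 ± 0.30 and S100a9 at -0.26 ± 0.30 (-0.13 without air replicate 3). Their median was -0.14, and 0.025 without air replicate 3 and -0.24 without air replicate 5. B cell markers were lower in 8 of 11, with Mzb1, a chaperone of antibody secretion, at 9.47 to 23.1 in air and 5.33 to 13.0 in low smoke (-0.84 ± 0.25, limma adjusted p = 0.472), and Cr2 at -0.54 ± 0.28. The B cell median was -0.15, and -0.06 without air replicate 3 and -0.34 without air replicate 5. T and NK cell markers were higher in 8 of 15 (their median was 0.001, -0.034 with every library at the same total, 0.065 without air replicate 3 and -0.10 without air replicate 5). Cd5 stood at -0.27, or -0.17 without air replicate 3, and Ncr1 at -0.18, or -0.39 without air replicate 5. Mast cell markers were lower in 4 of 7, with Hdc at -0.15 (-0.09 without air replicate 3) and Kit, which other lung cells also express, at 0.11. Of the type 2 inflammation genes 4 of 8 were higher, and the smallest p were those of Alox15 (0.37 ± 0.16) and Chia, the acidic chitinase (0.35 ± 0.16). Complement genes were lower in 10 of 18, by a median of -0.032 (-0.059 without air replicate 3), with Cd59, which shields cells from lysis, at 0.15 and Cd55 at -0.23.

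Markers of tissue that a lung piece can carry along were measured too. Only 13 of 19 cardiac muscle genes measured reached the level filter. All 13 were lower in low smoke, with a median of -0.68. Of these, Myl4 and Actn2 reached the filter only through air. Their means were 14.8 and 13.8 in air and 6.09 and 7.75 in low smoke. The count of lower genes thus depends in part on the filter, and the direction of genes under it was not tested. The list mean spread from -2.04 to 1.65 in air (median 0.25) and from -2.04 to 1.58 in low smoke (median -1.21). In low smoke 7 of 8 libraries lay below the air mean. The 1.58 was low smoke replicate 2 alone, and the other low smoke libraries ran from -2.04 to -0.17. The summed level of the cardiac list was 295 to 2216 in air (median 738) and 329 to 2034 in low smoke (median 463). Myl4, an atrial myosin light chain, ran from 1.85 to 29.2 in air and from 0 to 31.5 in low smoke (-1.62 ± 0.72, limma adjusted p = 0.625). Actn2 (-1.48 ± 0.85), Mybpc3 (-1.18 ± 0.75) and Casq2 (-0.68 ± 0.43) spread as widely. Pulmonary veins of rats carry heart muscle, and the part of such muscle in the other results was not tested. Red blood cell genes were higher in 6 of 7 with a median of 0.35. The smallest p were those of Slc4a1, the anion exchanger of red cells (28.8 to 66.5 in air, 53.5 to 95.5 in low smoke, 0.51 ± 0.17, limma adjusted p = 0.531), and Alas2, the first enzyme of heme synthesis in red cells (0.36 ± 0.14).

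Mesothelial markers were higher in 5 of 5, and in 4 of 5 without air replicate 3, with Msln at 0.19 ± 0.18 and Upk3b at 0.26 ± 0.31 (0.11 without air replicate 3, 0.39 without air replicate 5). Only 3 adipose markers were tested, with Fabp4 at -0.38 ± 0.31 and Cidec, at 3.99 to 14.7 in air and 10.3 to 24.8 in low smoke, at 0.79 ± 0.26 (limma adjusted p = 0.517). The 2 keratinocyte markers tested, Krt14 (0.80 ± 0.35) and Tp63 (-0.28 ± 0.39, or -0.51 without air replicate 3), differed in sign.

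Cytosolic ribosomal protein genes were lower in 47 of 63 with a median of -0.10. At an unadjusted p below 0.05, 10 were lower (all genes, 3.27%) and 2 higher (all genes, 4.3%). Without air replicate 3 there were 41 lower and 22 higher, with a median of -0.067. Rpl41 stood at 576, 673 and 881 in air and at 417, 543 and 676 in low smoke (-0.40 ± 0.11, limma adjusted p = 0.415), with 7 of 8 low smoke libraries below the air range. Rpl10a differed by -0.90 ± 0.27 (limma adjusted p = 0.472). Mitochondrial ribosomal genes were lower in 41 of 68, but without air replicate 3 there were 32 lower and 35 higher. Their 2 genes of smallest p were opposed, with Mrpl44 at -0.22 and Mrps5 at 0.22. Ribosomal protein genes have many processed copies in the genome that can share reads.

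Nuclear genes of oxidative phosphorylation were lower in 51 of 72 by a median of -0.062. At an unadjusted p below 0.05, 4 were higher (all genes, 4.3%) and 3 lower (all genes, 3.27%). Without air replicate 3 there were 40 lower and 32 higher, with a median of -0.017. The 2 with the smallest p were higher. Ndufc1, of complex I, stood at 328, 517 and 797 in air and at 552, 795 and 1188 in low smoke (0.74 ± 0.18, limma adjusted p = 0.344). Sdhb, of complex II, stood at 392, 465 and 502 in air and at 486, 528 and 610 in low smoke (0.24 ± 0.07, limma adjusted p = 0.433). All 8 low smoke libraries exceeded the air median for both. Genes of the mitochondrial genome were lower in 11 of 13 with a median of -0.13, the exceptions being Mt-co2 (0.22) and Mt-nd5 (0.12). The smallest p were those of Mt-atp8, which overlaps its neighbour (-0.23 ± 0.08), and Mt-nd3 (-0.30 ± 0.13).

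Proteasome genes split 17 higher and 18 lower, and 21 higher and 14 lower without air replicate 3. The 4 with an unadjusted p below 0.05 were all higher (all genes, 4.3% higher and 3.27% lower): Psmb4, Psmc3, Psma1 at 0.26 and Psmd7 at 0.21. Psmb4 stood at 373, 508 and 967 in air and at 581, 931 and 1653 in low smoke (0.71 ± 0.21, limma adjusted p = 0.443), and Psmc3 differed by 0.53 ± 0.14 (limma adjusted p = 0.413). S100a6, a calcium-binding protein of stromal and epithelial cells, stood at 67341, 81359 and 169650 in air and at 94364, 148529 and 227484 in low smoke (0.71 ± 0.20, limma adjusted p = 0.423), and 3 of 8 low smoke libraries exceeded the air range. Its highest air value was air replicate 5, and without that library the difference was 0.86. Of the 10 S100 genes tested 6 were higher, by a list median of 0.056 (0.027 without air replicate 5), with S100a1 at 0.32 ± 0.13.

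No stress pathway gene passed the test. The unfolded protein response was higher in 14 of 22 by a median of 0.03 (-0.0091 with every library at the same total, 0.051 without air replicate 3, 0.0087 without air replicate 5), with the endoplasmic reticulum chaperones Hspa5 at 0.25 ± 0.11 and Hsp90b1 at 0.18 ± 0.08. Heat shock genes were higher in 11 of 15 by a median of 0.09, with Hspb8 at 0.13, Hspe1 at -0.29 and, farthest from 0, Hspa1b, an inducible HSP70, at 0.86 (limma adjusted p = 0.817). Targets of p53 split 8 and 8 (7 higher and 9 lower without air replicate 3). The 3 at an unadjusted p below 0.05 were higher (all genes, 4.3% higher and 3.27% lower): Ccng1, cyclin G1 (0.15 ± 0.05), Phlda3 (0.39 ± 0.15) and Zmat3 (0.33). Hypoxia genes were lower in 11 of 18; the glycolytic enzymes Pgk1 and Aldoa differed by 0.26 ± 0.10 and -0.16 ± 0.08 (-0.10 without air replicate 3 for Aldoa), and Hif3a was the farthest from 0 at -0.64 (limma adjusted p = 0.709). Clock genes were higher in 12 of 18 by a median of 0.045, or in 9 of 18 by 0.019 without air replicate 3 and by 0.119 without air replicate 5, with Cry2 at 0.21 ± 0.09. Cholesterol synthesis genes were lower in 16 of 23, and in 13 of 23 without air replicate 3, with Sc5d at -0.11. Proliferation genes split 8 higher and 7 lower, and 11 and 4 without air replicate 3, and Mcm2 and Mcm5, of the replicative helicase, differed by 0.19 and 0.23 (0.35 without air replicate 3 for Mcm5). No gene in any of these lists passed the test.

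High smoke was set beside low smoke to see where the named genes stood at the higher dose. In 1 limma fit over all 22 libraries, 977 of 14414 genes (6.78%) differed between high and low smoke, 548 higher and 429 lower in high smoke. Without high smoke replicates 1, 3 and 7, which earlier results of these data had set apart, 0 genes passed, so none of the following calls holds without them. That fit also had fewer high smoke libraries, so it cannot show how far each call rests on the libraries left out. The high against low and low against air comparisons share the low smoke libraries and are not independent.

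SNORD82 had a median of 679 in air, 1465 at the low dose and 4521 at the high dose, and rose from low to high smoke by 1.37 (limma adjusted p = 0.0248). SNORD18 and Snord92 rose by 1.24 and 1.33 (limma adjusted p = 0.0309 and 0.0333), while Snord66 was higher by 1.25 without passing (limma adjusted p = 0.0519). Gpx4 had medians of 469, 652 and 876 in air, low and high smoke and rose from low to high by 0.45 (limma adjusted p = 0.0309), and Cat, at 1617, 1896 and 2623, rose by 0.46 (limma adjusted p = 0.0247). Krt7 rose by 0.35, Rcbtb2 by 0.35, Napsa by 0.62, Tppp3 by 0.42, Tagln by 0.47 and Chia by 0.63 (limma adjusted p from 0.0174 to 0.0483). For these genes the low smoke median lay between those of air and high smoke.

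A second set had its lowest median in low smoke. Usp18 had medians of 295, 161 and 336 in air, low and high smoke and rose from low to high smoke by 0.83 (limma adjusted p = 0.0414). Isg15, at 68.1, 45.3 and 93.0, rose by 0.84 (limma adjusted p = 0.0357), and Irf7, at 167, 97.9 and 200, was higher by 0.79 without passing (limma adjusted p = 0.102). Bcl6, Rpl10a and Fabp4 also rose from low to high smoke, by 0.36, 0.93 and 1.02 (limma adjusted p = 0.0420, 0.0398 and 0.0499). Outside this set, Kit fell by 0.23 from low to high smoke, with its highest median in low smoke (limma adjusted p = 0.0433). Mt-atp8 fell by 0.40 (limma adjusted p = 0.0464), with medians of 1831, 1552 and 1248 in air, low and high smoke. None of these genes passed the test between low smoke and air, so no order over the 3 groups was established.

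**Figure D5:**
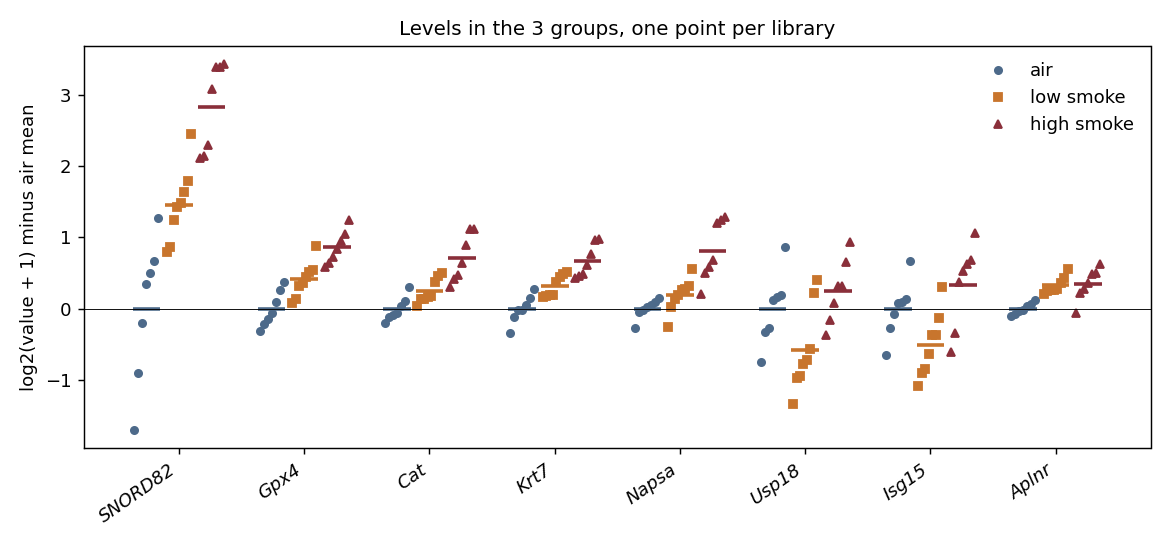
Log2(value + 1) minus the air mean for 8 named genes, chosen after their values were seen, one point per library (circles, 7 air; squares, 8 low smoke; triangles, 7 high smoke), with the group means as bars. SNORD82, Gpx4, Cat, Krt7 and Napsa have their highest medians in high smoke, Usp18 and Isg15 their lowest in low smoke, and Aplnr stands at about the same level in both smoke groups.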

How the data were processed

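RNA from 1 lung piece per rat was sequenced as PrepX libraries from 1 µg of total RNA whose RNA integrity number reached 9.0 or more, per the labels. Reads were aligned with STAR 2.7.3a to rn6 and normalized in Partek with DESeq2, per the submitters' processing notes. The counter and its use of strand and multiply mapped reads are not given in the sources used here. The deposited values are a signal: counts per gene scaled by the size factor of their library. They are not adjusted for gene length. Between 80.7% and 82.8% of values under 200 reads lay within 0.02 of a whole read, so whole counts were not recovered and no count model was run; read equivalents are a library's sum of values over what 1 read is worth in it. The table holds 22 of the 23 labelled samples. High smoke replicate 8 was not analysed here, and the labels speak of 1 air sample removed for poor quality. Replicate numbers follow label order.

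Genes averaging 10 or more over the 15 libraries were fitted as log2(value + 1) with limma 3.58.1 in R 4.3.3 (trend on, 2 groups), two-sided, with Benjamini-Hochberg adjustment over all genes tested and a threshold of 0.05. A gene averaging under 10 in 1 group could be tested through the other. Examples are LOC108348050, Cyp1a1 and Krt14, low in air, and Myl4, Actn2, Mzb1 and Tp63, low in low smoke. High against low smoke used 1 fit of all 3 groups. Fold changes on this scale understate those of low genes. The fit was tested on simulated data. Samples are separate rats. Of 716 genes listed by symbol in 48 lists, 677 matched by symbol, 5 by an older name and 34 did not match. The members and lists were chosen with earlier results of these data known.

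The text names 5 kinds of genes: those past the threshold, the 12 smallest p with a mean of at least 50 in a group, those whose groups do not overlap, the 2 (for 9 lists 4) smallest p of each list, and 9 genes induced by combustion products. Genes named outside this rule, to complete a count or as holders of a motif, were chosen after their values were seen. Some genes under this rule are not reported here. Alternatives were other pseudocounts (0.5, 5), level filters, scalings, weights, variance models, a fit of all 3 groups, the rank-sum test and leaving out each library. Promoters are from RefSeq (GRCr8), used for letters only.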

Additional observations from a re-analysis of the deposited data

Results flagged for a closer look

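In 12 of 278 checks (139 named genes, each in air and in low smoke), the highest or lowest library stood away from its group by Dixon's 95% criterion; chance alone flags about 1 in 20 groups. Air replicate 3 accounts for 5 of these: it was low for Pak2 (108, others 184 to 252) and Fbn1 (1547, others 2201 to 2829), and high for Nop56 (157, others 91.6 to 109), Aldoa (1666, others 1129 to 1328) and Hmox1 (1395, others 164 to 410). Air replicate 5 was high for Rbmx2 (413, others 220 to 265) and low for Ncr1 (26.9, others 61.0 to 89.0). Low smoke replicate 5 was high for Psmc3 (1554, others 730 to 971), Phlda3 (744, others 311 to 459) and Col4a1 (11534, others 9140 to 10188). Low smoke replicate 1 was high for Bcl6 (221, others 133 to 168), and low smoke replicate 6 for Gpnmb (1786, others 867 to 1214).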

How the results depend on the processing

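The count of genes past the test was 0 in low smoke against air and stayed 0 in 22 of 27 alternatives. Among the 22 is the rank-sum test, which with 7 and 8 libraries cannot pass only a few genes. The count was 1 with a pseudocount of 5 and 1 with array weights, both LOC108348050. Leaving out single libraries gave 0 to 3: LOC108348050 without air replicate 3, AABR07034273.1, LOC100911730 and Rbmx2 (3 genes) without air replicate 5, and AABR07031184.2 and LOC108348065 (2 genes) without air replicate 6. For LOC108348050, LOC100911730, Rbmx2 and LOC108348065 the library left out held the air value nearest to low smoke. Unadjusted p below 0.05 held for 847 to 1487 genes. High against low smoke gave 977 genes, 1036 in a fit of those 2 groups, and 0 without high smoke replicates 1, 3 and 7. Scaling every library to the same total moved the median of all genes to -0.032. The mean sum of values was higher in low smoke by 236621 (exact permutation p = 0.0595183). That sum is not depth, because the values are already scaled by size factors.

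Of 138 named genes tested, 5 changed sign somewhere, and 3679 of 3691 values kept their direction. Over the fits that leave out 1 library, Snhg11 ran from -0.113 to 0.037 (above 0 without low smoke replicate 2), Nqo1 from -0.0015 to 0.124 (below 0 without low smoke replicate 7) and Hmox1 from -0.471 to 0.043 (above 0 without air replicate 3). Gclm ran from -0.034 to 0.074 and was below 0 without air replicate 5, low smoke replicate 4 or low smoke replicate 8, and -0.014 with the same total. Txnrd1 ran from -0.033 to 0.074 and was below 0 without air replicate 2 or 7 or low smoke replicate 3 or 5, and -0.015 with the same total. The cause was not tested. Of 52 list medians, 24 changed sign in some alternative, but not those of the interferon, immediate early, acute inflammation, glucocorticoid, snoRNA, type 1 cell, endothelial, matrix, cardiac, cytosolic ribosomal, oxidative phosphorylation, mitochondrial genome and blood lists. No paired analysis was possible because the rat numbers are unique and the replicate numbers only name the samples. Depth limits most the genes at low values, such as Cyp1a1 and Cxcl2.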
